A study of Homo sapiens with 6 samples.

Results

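Cholesterol and fatty acid synthesis was followed in K562 cells through 30 genes, taken by symbol from the table of read counts per gene. They were 7 genes of the mevalonate pathway, 10 of the sterol branch, 6 for the SREBP regulators and a sterol carrier, and 7 of fatty acid synthesis. Of the 30 symbols, 29 were in the table of 52088 entries and all 29 passed the filter on low counts, among 20746 tested genes. Expression of ACACA, which encodes the carboxylase that makes malonyl-CoA, was not analysed here, and only its promoter was searched. K562 is an erythroleukemia line that grows in suspension. Bulk RNA-seq was available for 2 libraries each of Control (genotype WT in the labels), of cells lacking the ultraconserved element PAX6_Tarzan (PAX6_Ta KO) and of cells lacking PBX3_Claudia (PBX3_Cl KO). The knockouts were made by transfection of paired guide RNAs with Cas9, puromycin selection and picking of single clones, and all cells were grown in RPMI with serum. Control is given as wild-type K562 and not as the study's edited control with guides against GFP, so that loss of an element cannot be told apart from editing, selection and cloning. Whether both libraries of a knockout came from 1 clone is not stated.

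Cholesterol is built from acetyl-CoA through mevalonate, farnesyl diphosphate, squalene and lanosterol. Fatty acids are built from the same acetyl-CoA by carboxylation, chain growth on fatty acid synthase, elongation and desaturation. Most genes of both routes are known targets of the SREBP transcription factors, which SCAP escorts out of the endoplasmic reticulum when sterols are low and which the INSIG proteins hold back when sterols are high. Growing leukaemia cells make membrane lipids by these routes.

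The libraries held between 45912044 and 60908470 counts, and the 29 genes took 0.641% to 0.712% of them. All 15 erythroid markers were at 1 CPM (counts scaled to a fixed library size by TMM) or more in every group, so the labelled cell type showed its markers. Their summed level was 6361 to 7466 CPM in Control, 10140 to 11940 CPM in PAX6_Ta KO and 9221 to 10240 CPM in PBX3_Cl KO, without overlap between Control and either knockout. Markers of hepatocytes and adipocytes, the other cell types known for lipid synthesis, summed to at most 0.227 CPM in any library. Fibroblast markers summed to 49 to 133 CPM in Control, 23.1 CPM in both PAX6_Ta KO libraries and 3.04 to 3.19 CPM in PBX3_Cl KO, again without overlap. Most of that was COL1A2 in Control (48.7 and 133 CPM) and PAX6_Ta KO (17.8 and 18.8 CPM). COL1A1 and COL3A1 went the other way. COL1A1 stood at 0.133 and 0.139 CPM in Control, 4.66 and 3.93 CPM in PAX6_Ta KO, and 0.1815 and 0.48 CPM in PBX3_Cl KO. For COL3A1 the values were 0.0999 and 0.178 CPM, 0.458 and 0.304 CPM, and 1.25 and 0.851 CPM in the same order. The defining marker LUM was at 0 counts in every library and DCN at 0.204 CPM or less. Lymphoid markers summed to 5.04 to 10.7 CPM, and Control overlapped with each knockout. The part of the erythroid and fibroblast marker differences in the results for lipid genes was not tested. In bulk RNA, fewer cells of a kind and less RNA per cell cannot be told apart. The labels do not state that the 2 libraries of a group came from separate cultures, so the p-values reflect how far these libraries differ, which may be technical.

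The genes differed widely in level. On the scale of TMM-scaled CPM per kilobase of exon, the highest Control means were those of FASN at 233, SCD at 128, ACLY at 110 and INSIG1 at 81.9. FASN is fatty acid synthase, SCD the stearoyl-CoA desaturase and ACLY the enzyme that splits citrate into acetyl-CoA. The lowest were INSIG2 at 1.08 and CYP51A1, the lanosterol demethylase, at 0.474 CPM per kilobase. CYP51A1 overlaps AKAP9 and further annotated genes, with which it may share reads. SQLE, the squalene epoxidase, stood at 55.4 and MVK, the mevalonate kinase, at 5.18 CPM per kilobase. SREBF2 and SREBF1, which encode the SREBP proteins, stood at 49.01 and 34.97 CPM per kilobase.

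**Figure D1:**
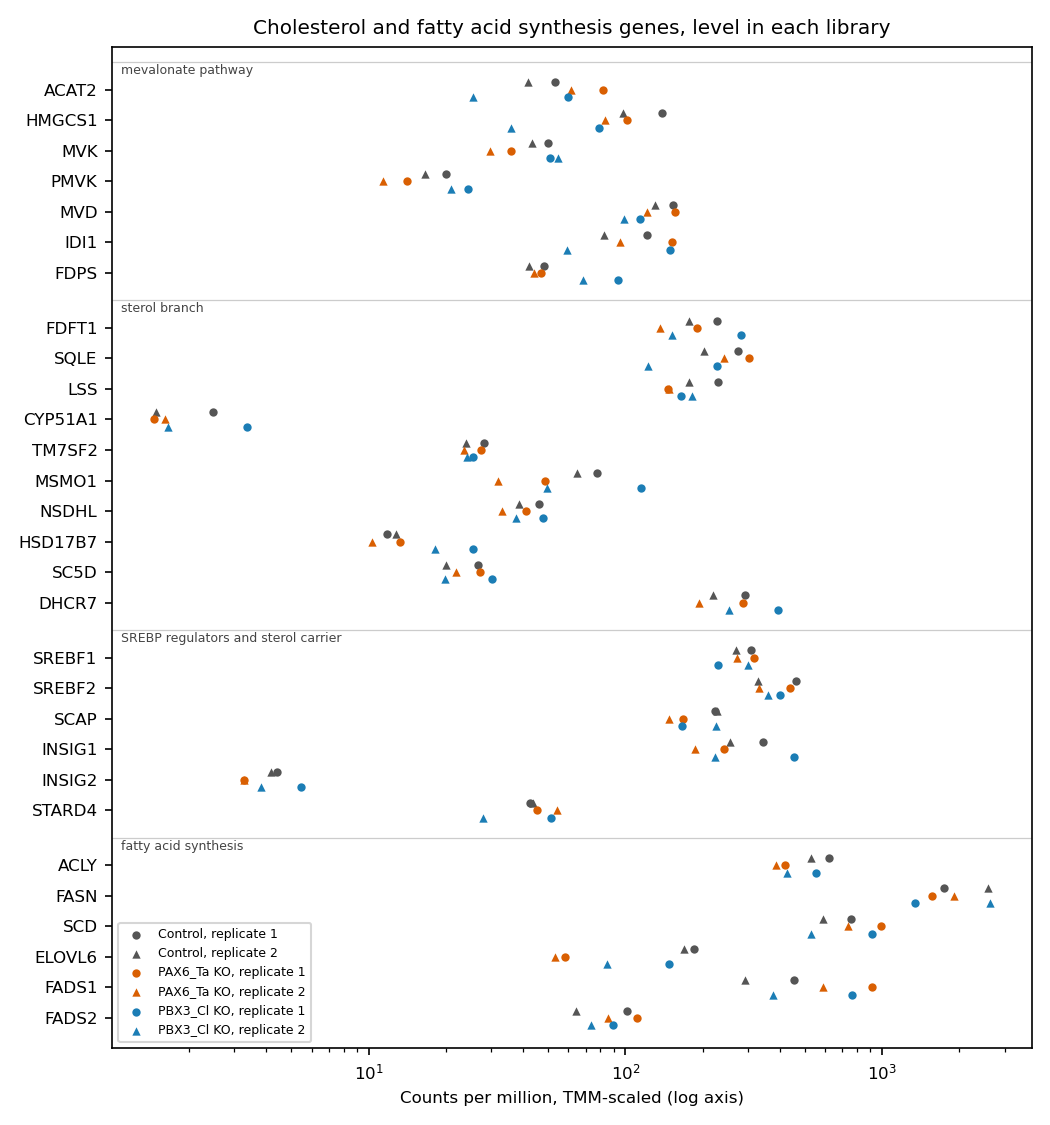
TMM-scaled CPM (log axis) of the 29 genes by role, with 1 point for each of the 6 libraries, circles for replicate 1 and triangles for replicate 2. The libraries of PAX6_Ta KO overlap with Control for 17 of 29 genes and those of PBX3_Cl KO for 22, and ELOVL6 in PAX6_Ta KO (58.1 and 53.1 CPM) stands below the other groups.

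Few of the genes were called when a knockout was compared with Control, and a gene not called is not thereby shown to be unchanged. The comparison holds loss of the element together with editing, selection and cloning. In PAX6_Ta KO 1 of 29 genes fell, ELOVL6, and in PBX3_Cl KO 1 rose, FDPS (edgeR quasi-likelihood test, Benjamini-Hochberg adjusted p below 0.05). Over all tested genes 7.21% were called higher and 4.21% lower in PAX6_Ta KO, and 6.28% higher and 2.69% lower in PBX3_Cl KO. At shares this low a set of 29 genes would hold few calls, so these counts do not set it apart. No gene of the 29 was called higher in PAX6_Ta KO by edgeR, with 1 at an unadjusted p below 0.05 and 1 called by DESeq2. None was called lower in PBX3_Cl KO by edgeR, with 2 at an unadjusted p below 0.05 and 1 called by DESeq2. With the replicate number as a block the calls were 1 higher and 3 lower in PAX6_Ta KO, and 3 higher and 1 lower in PBX3_Cl KO.

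The fold changes of the set centred near 0. For the 29 genes the median log2 fold change came to -0.089 in PAX6_Ta KO and to 0.0072 in PBX3_Cl KO, beside medians of -0.019 and -0.0089 over all tested genes. In PAX6_Ta KO 21 genes lay within 0.5 of 0 on the log2 scale, and in PBX3_Cl KO 24 did. Their standard errors ran from 0.19 to 0.42 in both comparisons, with medians of 0.25 and 0.248. Both PAX6_Ta KO libraries lay above both Control libraries for 3 genes and below them for 9, where 27.0% and 28.0% of all tested genes did so. For PBX3_Cl KO these numbers were 4 above and 3 below, where 23.5% and 20.6% of all tested genes did so.

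**Figure D2:**
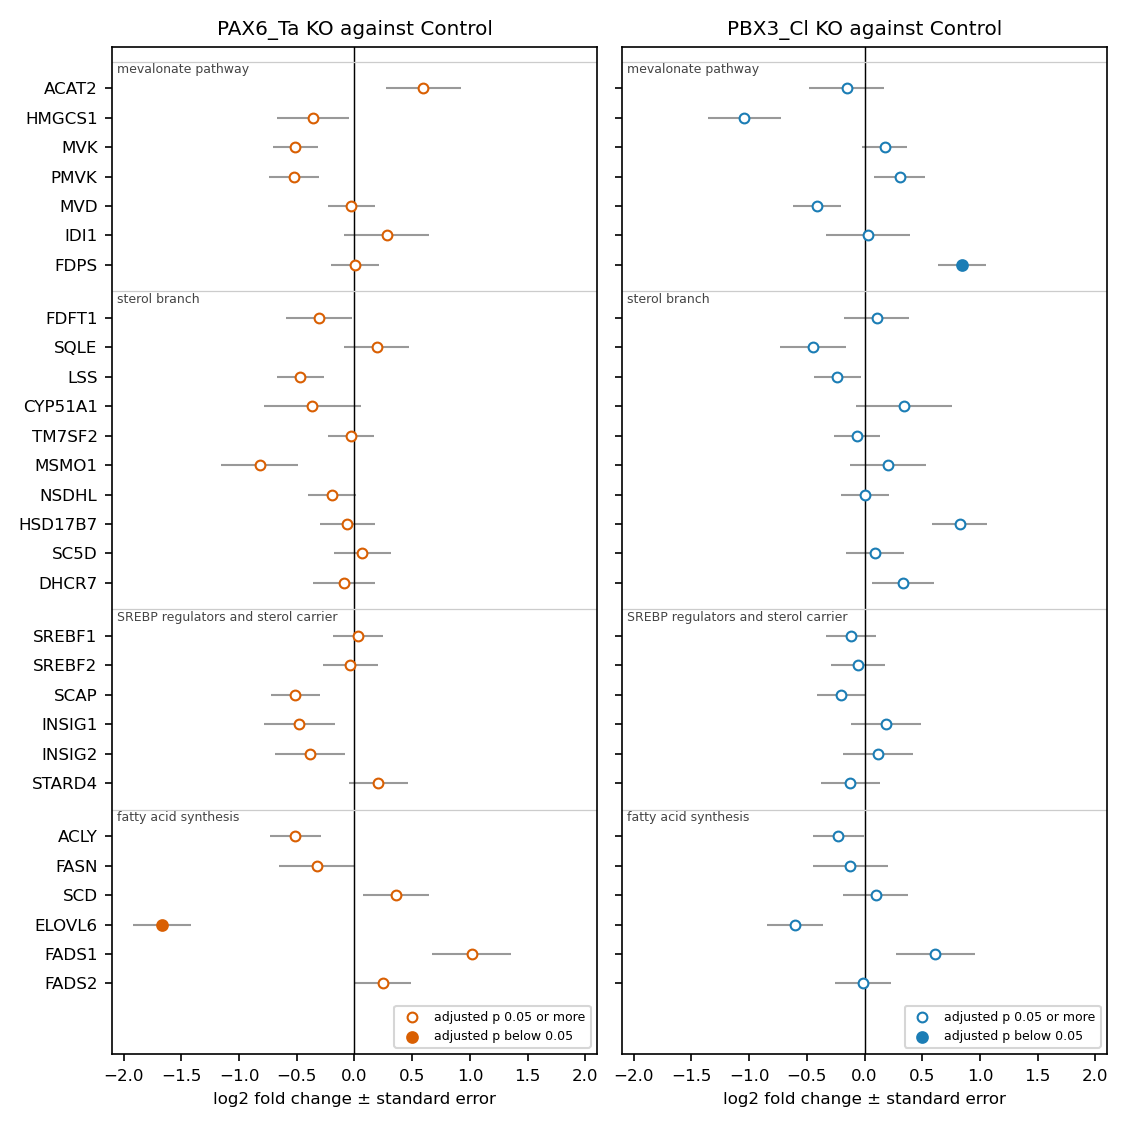
log2 fold change against Control with its standard error (horizontal bars) for the 29 genes by role, PAX6_Ta KO on the left and PBX3_Cl KO on the right, filled where the edgeR adjusted p was below 0.05. ELOVL6 at -1.67 is the only filled point on the left and FDPS at 0.85 the only one on the right.

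ELOVL6 elongates palmitate to stearate and lies on chr4:110967002-111120355 (GRCh37). Its level was 184 and 169 CPM in Control, 58.1 and 53.1 CPM in PAX6_Ta KO, and 148 and 85.2 CPM in PBX3_Cl KO. Both PAX6_Ta KO libraries lay below every other library, and the 2 PBX3_Cl KO libraries lay apart from each other, both below Control. In PAX6_Ta KO ELOVL6 fell by 1.67 on the log2 scale (SE 0.25, edgeR adjusted p = 0.000795). Genes of its chromosome arm, 4q, were lower as a whole in PAX6_Ta KO, with a median log2 fold change of -0.49 over 301 protein-coding genes. With the arm median taken out ELOVL6 was still called, at -1.18 (edgeR adjusted p = 0.00778), and it was called in all 14 alternatives run (adjusted p 1.48e-10 to 0.00778). In PBX3_Cl KO the fold change was -0.60 (SE 0.24, edgeR adjusted p = 0.178), and -1.09 (edgeR adjusted p = 0.0089) without PBX3_Cl KO replicate 1, with adjusted p-values up to 0.442 in the other alternatives.

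The other genes of fatty acid synthesis did not pass the test. FADS1, the delta-5 desaturase, had the highest fold change of the 29 in PAX6_Ta KO. It stood at 455 and 291 CPM in Control, 917 and 590 CPM in PAX6_Ta KO, and 763 and 377 CPM in PBX3_Cl KO. Both PAX6_Ta KO libraries lay above Control, while the PBX3_Cl KO libraries spanned the upper Control value. The log2 fold change in PAX6_Ta KO was 1.01 (SE 0.34, edgeR adjusted p = 0.0848), with an adjusted p of 0.0396 by DESeq2 and 0.00237 in edgeR with the replicate block, and a range of 0.000358 to 0.424 over the alternatives. In PBX3_Cl KO it was 0.61 (SE 0.34, edgeR adjusted p = 0.379), and 0.56 with an edgeR adjusted p of 0.0397 under the block. It was -0.024 without PBX3_Cl KO replicate 1 and 1.04 without PBX3_Cl KO replicate 2 (adjusted p = 0.978 and 0.0855). FADS1 overlaps FADS2, the delta-6 desaturase on the opposite strand. FADS2 itself had log2 fold changes of 0.25 and -0.017, and it overlaps FEN1 on the same strand, with which it may share reads. ACLY had 621 and 530 CPM in Control against 420 and 385 CPM in PAX6_Ta KO, without overlap, at a log2 fold change of -0.52 (SE 0.22, edgeR adjusted p = 0.183, with 0.0333 under the block and up to 0.637 in other alternatives). SCD had log2 fold changes of 0.36 and 0.095, and FASN of -0.32 and -0.12, in PAX6_Ta KO and PBX3_Cl KO.

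In the mevalonate pathway 1 of 7 genes was called against Control. FDPS makes farnesyl diphosphate, from which sterols and the lipid anchors of proteins are built, and lies on chr1:155278539-155290457 (GRCh37). It stood at 48.3 and 42.1 CPM in Control, 46.8 and 43.95 CPM in PAX6_Ta KO, and 94.0 and 68.6 CPM in PBX3_Cl KO. Both PBX3_Cl KO libraries lay above the other 4, which overlapped. FDPS rose in PBX3_Cl KO by 0.85 on the log2 scale (SE 0.21, edgeR adjusted p = 0.0224), and its log2 fold change in PAX6_Ta KO was 0.0043 (SE 0.21). The call in PBX3_Cl KO was lost with the median of arm 1q (0.15) taken out, at 0.69 (edgeR adjusted p = 0.0649). It was also lost without Control replicate 1 (0.95, adjusted p = 0.0519), without Control replicate 2 (0.75, adjusted p = 0.188) and without PBX3_Cl KO replicate 1 (0.56, adjusted p = 0.092), and over the alternatives the edgeR or DESeq2 adjusted p ran from 0.00631 to 0.188.

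HMGCS1, the synthase that makes HMG-CoA, had the lowest fold change of the 29 in PBX3_Cl KO. Its level was 139 and 97.5 CPM in Control, 101 and 83.0 CPM in PAX6_Ta KO, and 79.1 and 35.9 CPM in PBX3_Cl KO. Both PBX3_Cl KO libraries lay below both Control libraries, and replicate 2 lay below replicate 1 in each group. The log2 fold change in PBX3_Cl KO was -1.04 (SE 0.32, edgeR adjusted p = 0.0632), with an adjusted p of 0.0393 by DESeq2 and 0.00801 in edgeR with the block, and a range of 0.000196 to 0.203 over the alternatives. ACAT2, the cytosolic thiolase that opens the pathway, stood at 53.2 and 41.6 CPM in Control, 82.2 and 61.3 CPM in PAX6_Ta KO and 59.6 and 25.6 CPM in PBX3_Cl KO. Its log2 fold changes were 0.60 (SE 0.32) and -0.16 (SE 0.32), and its locus overlaps TCP1 on the opposite strand. MVD and IDI1, the decarboxylase and isomerase between the kinases and FDPS, had log2 fold changes of -0.028 and 0.28 in PAX6_Ta KO and -0.41 and 0.028 in PBX3_Cl KO.

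None of the 10 genes of the sterol branch was called against Control by edgeR in either knockout. At an unadjusted p below 0.05 there were 2 lower in PAX6_Ta KO and 1 higher in PBX3_Cl KO, and DESeq2 called 1 higher in PBX3_Cl KO. That gene was HSD17B7, the ketoreductase of sterol demethylation, at 11.8 and 12.8 CPM in Control, 13.3 and 10.3 CPM in PAX6_Ta KO and 25.5 and 18.1 CPM in PBX3_Cl KO. Both PBX3_Cl KO libraries lay above the other 4. The log2 fold change was 0.82 (SE 0.24), with an adjusted p of 0.0537 in edgeR, 0.042 in DESeq2 and 0.0286 in edgeR with the block, and from 0.018 to 0.208 over the alternatives. MSMO1, the C4-methyl sterol oxidase, lies on 4q as ELOVL6 does, and stood at 77.4 and 65.0 CPM in Control, 48.7 and 31.9 CPM in PAX6_Ta KO and 115 and 49.5 CPM in PBX3_Cl KO. Its PAX6_Ta KO libraries lay below both Control libraries, at a log2 fold change of -0.82 (SE 0.33, edgeR adjusted p = 0.154, with 0.026 under the block and 0.00868 to 0.709 over the alternatives). Of the other 8 genes, DHCR7, which carries out a last reduction to cholesterol, had log2 fold changes of -0.089 and 0.33. LSS, the lanosterol synthase, had -0.47 and -0.24, and SQLE 0.19 and -0.45, in PAX6_Ta KO and PBX3_Cl KO. TM7SF2, a sterol C14 reductase that overlaps VPS51 on the same strand and may share reads with it, had -0.030 and -0.068. NSDHL, the decarboxylating sterol dehydrogenase, had -0.19 and 0.0072, and SC5D, the sterol C5 desaturase, 0.067 and 0.091. FDFT1, the squalene synthase, had -0.31 and 0.10, and CYP51A1 -0.37 and 0.34.

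The genes that govern the pathway gave no call against Control by edgeR or DESeq2, with 1 lower at an unadjusted p below 0.05 in PAX6_Ta KO. SREBF1 had log2 fold changes of 0.033 (SE 0.22) in PAX6_Ta KO and -0.12 (SE 0.22) in PBX3_Cl KO, and SREBF2 of -0.036 (SE 0.24) and -0.056 (SE 0.24). SCAP, the escort of SREBP, had 223 and 227 CPM in Control against 168 and 148 CPM in PAX6_Ta KO and 166 and 225 CPM in PBX3_Cl KO. Its PAX6_Ta KO libraries lay below Control, at a log2 fold change of -0.51 (SE 0.21, edgeR adjusted p = 0.16). INSIG1, itself a well-known SREBP target, had 343 and 255 CPM in Control, 243 and 186 CPM in PAX6_Ta KO and 456 and 224 CPM in PBX3_Cl KO, with log2 fold changes of -0.48 (SE 0.30) and 0.19 (SE 0.30). INSIG2 had log2 fold changes of -0.39 and 0.11, and STARD4, a soluble carrier of cholesterol, of 0.21 and -0.12.

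The chromosome arms of these genes moved by different amounts. Beside 4q, the median log2 fold change in PAX6_Ta KO was -0.48 on 8p, where FDFT1 lies, -0.32 on 5p, where HMGCS1 lies, and -0.23 on 7q, where INSIG1 and CYP51A1 lie, and it was 0.25 on 8q, where SQLE lies. In PBX3_Cl KO the medians were 0.37 on 7q and 0.15 on 1q. What moved the arms was not tested.

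**Figure D3:**
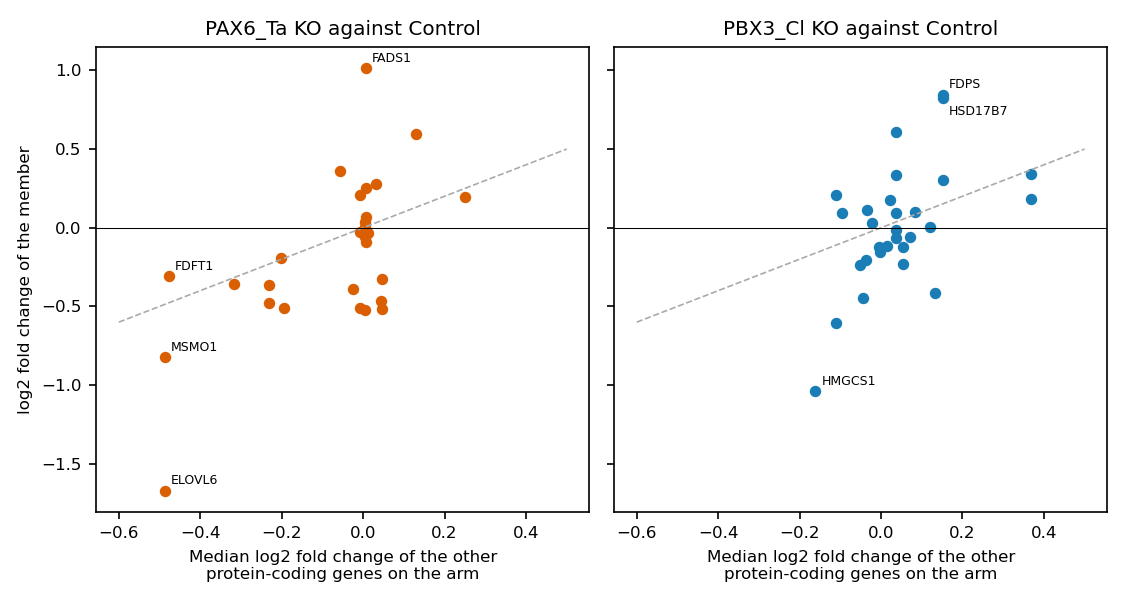
log2 fold change of each of the 29 genes against the median log2 fold change of the other tested protein-coding genes on its chromosome arm, PAX6_Ta KO on the left and PBX3_Cl KO on the right. The dashed line marks equal values, and ELOVL6 at -1.67 lies below its arm median of -0.49.

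The knockouts were also compared with each other. In this comparison 5 of 29 genes were lower in PAX6_Ta KO than in PBX3_Cl KO and none was higher by edgeR, where 6.71% and 5.26% of all tested genes were called lower and higher. At an unadjusted p below 0.05 there were 6 lower and 2 higher, and DESeq2 called 5 lower and 0 higher. The genes called by edgeR were ELOVL6, FDPS, HSD17B7, PMVK and MVK, at log2 fold changes of -1.07, -0.84, -0.88, -0.83 and -0.69 with edgeR adjusted p-values of 0.0134, 0.0189, 0.0315, 0.0278 and 0.0376. PMVK, the phosphomevalonate kinase, stood at 20.1 and 16.6 CPM in Control, 14.1 and 11.4 CPM in PAX6_Ta KO and 24.3 and 20.9 CPM in PBX3_Cl KO (SE of the difference 0.22). MVK stood at 50.0 and 43.4 CPM in Control, 35.9 and 29.6 CPM in PAX6_Ta KO and 50.8 and 54.6 CPM in PBX3_Cl KO (SE 0.19), and it overlaps MMAB on the opposite strand. For both kinases the PAX6_Ta KO libraries lay below the other 4, with log2 fold changes against Control of -0.52 and -0.51 that were not called.

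These 5 genes were lower in PAX6_Ta KO in all 14 alternatives run, but many of the calls were lost. DESeq2 called MSMO1 (-1.02, adjusted p = 0.0439) and not MVK (-0.67, adjusted p = 0.052), and MVK lost its call in 10 of 14 alternatives. With the arm medians taken out no gene of the 29 was called lower, at -0.69 for ELOVL6, -0.70 for FDPS, -0.74 for HSD17B7, -0.68 for PMVK and -0.66 for MVK (edgeR adjusted p 0.0542 to 0.111). The calls over all tested genes then went from 1091 higher and 1392 lower to 1133 higher and 891 lower. Without PAX6_Ta KO replicate 2 no gene was called lower, with log2 fold changes of -0.79 for FDPS and -0.55 for MVK among them. Without PAX6_Ta KO replicate 1 there were 2 lower. Without PBX3_Cl KO replicate 1 there were 1 lower and 4 higher, and ELOVL6 then stood at -0.58. With the replicate block 7 were lower, with INSIG1 and MSMO1 added, and 3 were higher, namely ACAT2, HMGCS1 and SQLE. In the fit without the block and with the arm medians taken out, INSIG1 stood at -0.061 and MSMO1 at -0.65. In that fit ACAT2 stood at 0.62, HMGCS1 at 0.84 and SQLE at 0.35.

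Within each group the replicate 2 library had lower levels of these genes than the replicate 1 library. This held for 25 of 29 genes in Control, 25 in PAX6_Ta KO and 24 in PBX3_Cl KO, where 48.9%, 51.3% and 49.3% of all tested genes were lower in replicate 2. The median log2 difference of the 29 genes was -0.28 in Control, -0.31 in PAX6_Ta KO and -0.51 in PBX3_Cl KO, and the medians over all tested genes were 0.0058, -0.011 and 0.0062. In all 3 groups 21 of the 29 genes were lower in replicate 2, against 24% of all tested genes. FASN alone was higher in replicate 2 in all 3 groups, as 24.1% of all tested genes were. FASN stood at 1744 and 2593 CPM in Control, 1558 and 1905 CPM in PAX6_Ta KO and 1346 and 2636 CPM in PBX3_Cl KO. The log2 differences in PBX3_Cl KO reached -1.33 for IDI1, -1.22 for ACAT2, -1.21 for MSMO1 and -1.14 for HMGCS1. The mevalonate genes summed to 585 and 454 CPM in Control, 588 and 446 CPM in PAX6_Ta KO and 570 and 363 CPM in PBX3_Cl KO. By this sum, libraries with the same number lay closer together than libraries of a group. The sums of the sterol branch and of the regulators were also lower in replicate 2 in each group. The sum for fatty acid synthesis, which holds FASN, was not. It was 3861 and 4238 CPM in Control, 4056 and 3753 CPM in PAX6_Ta KO, and 3810 and 4127 CPM in PBX3_Cl KO. What the replicate numbers mark is not given in the labels. Since 1 library stands for each number in each group, the difference has no replicate of its own within a group, and it is given with no test.

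**Figure D4:**
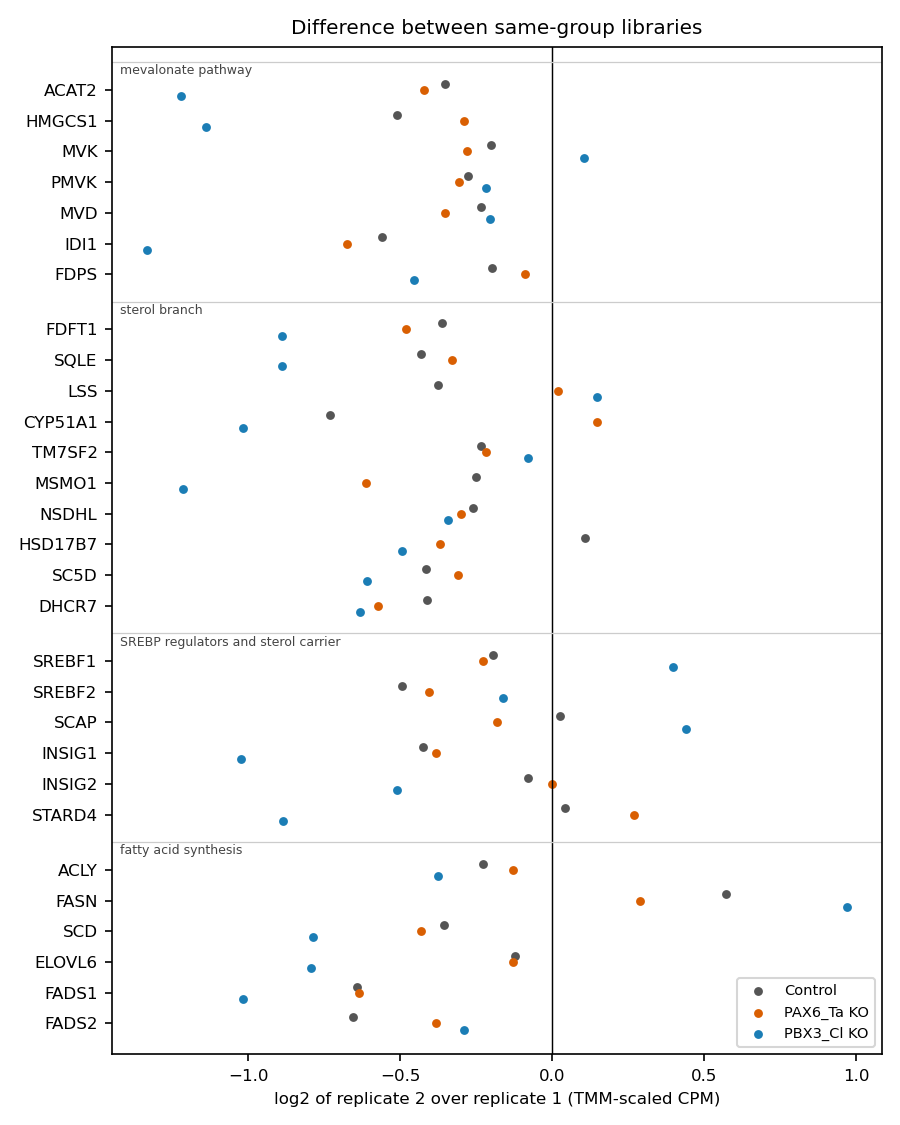
log2 of the TMM-scaled CPM in replicate 2 over that in replicate 1 for the 29 genes by role, with 1 point for each group. Most points lie left of 0 (25 of 29 genes in Control, 25 in PAX6_Ta KO, 24 in PBX3_Cl KO), and FASN lies to the right in all 3.

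Sequence upstream of the genes is shown because known SREBP targets are recognised by sites near their starts. Promoters were taken from RefSeq (GRCh38.p14) as the 250 bases before the first listed start, found for 26 of the 30 genes, and searched on both strands for 4 motifs. The NF-Y box CCAAT was in 16 of 26 promoters (61.5%), beside 33.0% of all 27305 promoters of the same length. The Sp1 box GGGCGG was in 24 (92.3%), beside 42.3%. The E-box CACGTG was in 3 (11.5%), beside 6.49%, and the SREBP site TCACNCCAC in 1 (3.85%), that of SREBF2, beside 0.875%. The promoters of 4 genes are printed 5′ to 3′ on the strand of the gene, ending at the base before the start, with matches to any of the motifs in capitals (on the other strand CCAAT reads ATTGG and GGGCGG reads CCGCCC). They are those of ELOVL6 and FDPS, called in a knockout, of INSIG1, whose window holds an E-box, and of SREBF2, whose window holds the SREBP site. Their positions are chr4:110198616-110198865 (minus strand), chr1:155308616-155308865 (plus), chr7:155297628-155297877 (plus) and chr22:41832855-41833104 (plus).
ELOVL6: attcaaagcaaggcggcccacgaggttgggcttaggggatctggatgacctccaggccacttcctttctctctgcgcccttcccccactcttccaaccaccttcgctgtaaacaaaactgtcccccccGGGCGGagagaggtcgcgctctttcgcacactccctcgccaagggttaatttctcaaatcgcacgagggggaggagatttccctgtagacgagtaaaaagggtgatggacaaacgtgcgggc
FDPS: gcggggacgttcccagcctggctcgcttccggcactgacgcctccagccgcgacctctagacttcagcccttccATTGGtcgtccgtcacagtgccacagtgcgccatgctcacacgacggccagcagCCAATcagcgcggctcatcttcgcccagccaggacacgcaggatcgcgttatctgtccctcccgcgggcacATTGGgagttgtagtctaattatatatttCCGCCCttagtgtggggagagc
INSIG1: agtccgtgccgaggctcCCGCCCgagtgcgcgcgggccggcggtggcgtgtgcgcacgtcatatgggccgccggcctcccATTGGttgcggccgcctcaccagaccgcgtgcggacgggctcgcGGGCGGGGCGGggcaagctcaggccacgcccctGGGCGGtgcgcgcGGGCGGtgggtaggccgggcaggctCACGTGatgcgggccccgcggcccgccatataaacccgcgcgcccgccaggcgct
SREBF2: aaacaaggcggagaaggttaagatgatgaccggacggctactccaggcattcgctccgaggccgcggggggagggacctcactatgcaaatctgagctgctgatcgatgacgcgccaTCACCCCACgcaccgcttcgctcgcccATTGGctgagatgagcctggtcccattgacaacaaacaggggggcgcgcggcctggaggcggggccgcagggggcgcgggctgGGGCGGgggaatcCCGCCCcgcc
The ELOVL6 window held 1 Sp1 box and no match to the other motifs, while that of FDPS held 3 NF-Y boxes and 1 Sp1 box. The INSIG1 window held 1 E-box, 1 NF-Y box and 5 Sp1 boxes. The SREBF2 window held its SREBP site, 1 NF-Y box and 2 Sp1 boxes. A match describes the letters in the window and not binding, which was not measured. Only exact matches to the 4 patterns were counted, and 1 pattern stood for the SREBP site. A window without a match is therefore not shown to lack an SREBP site, and variants of the pattern were not searched.

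Genes of neighbouring lipid pathways were counted in 6 further lists. The edgeR counts of each list stand beside the shares over all tested genes. In PAX6_Ta KO 7.21% were called higher and 4.21% lower, and in PBX3_Cl KO 6.28% and 2.69%. Of 10 tested genes for SREBP processing and turnover, 2 were lower in PAX6_Ta KO, FBXW7 and PAQR3, at log2 fold changes of -0.62 and -0.72 (edgeR adjusted p = 0.0479 and 0.0359). FBXW7 is the ubiquitin ligase subunit that marks SREBP for decay, and PAQR3 tethers SCAP at the Golgi. Both lie on 4q and lost the call with the arm median taken out (-0.13 and -0.24), and FBXW7 was not called by DESeq2 either. In PBX3_Cl KO none of this list was called by edgeR or DESeq2, with 1 higher at an unadjusted p below 0.05. None of 14 genes of the isoprenoid side branches, which make dolichol, ubiquinone and prenyl anchors, was called by edgeR or DESeq2 in either knockout, with 2 lower at an unadjusted p below 0.05 in PAX6_Ta KO. In edgeR with the replicate block 2 of the 14 were called lower in PAX6_Ta KO.

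Of 20 genes for activation and elongation of fatty acids, 3 rose and 2 fell in PAX6_Ta KO, and 3 rose in PBX3_Cl KO. With the replicate block 4 were lower in PAX6_Ta KO and 1 in PBX3_Cl KO. ELOVL7, an elongase of saturated long chains, had 198 and 124 counts in Control, 2066 and 2661 in PAX6_Ta KO and 342 and 226 in PBX3_Cl KO. The PAX6_Ta KO libraries lay far above the other 4. ELOVL7 rose by 4.02 (SE 0.28, edgeR adjusted p = 2.99e-06) and 1.14 (SE 0.27, edgeR adjusted p = 0.0171) on the log2 scale. The second call was lost with only the 2 groups compared, without Control replicate 2 and without PBX3_Cl KO replicate 1 (0.73, adjusted p = 0.0934). ACACB, the mitochondrial acetyl-CoA carboxylase, rose by 1.56 (SE 0.41) in PAX6_Ta KO and 2.19 (SE 0.41) in PBX3_Cl KO, from 60 and 26 counts in Control to 129 and 96, and to 143 and 170 (edgeR adjusted p = 0.0271 and 0.00472). ME1, the malic enzyme that supplies NADPH, rose in PAX6_Ta KO by 1.33 (SE 0.25, edgeR adjusted p = 0.00359). HSD17B12, the ketoreductase of elongation, fell by 0.86 there (SE 0.21, edgeR adjusted p = 0.0198). With the 11p arm median of 0.62 taken out it stood at -1.48 (edgeR adjusted p = 0.000657), and in PBX3_Cl KO at -1.07 (edgeR adjusted p = 0.00686) in place of -0.44 (adjusted p = 0.284).

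Of 13 tested genes of the lipid droplet, 3 rose and 2 fell in PAX6_Ta KO, and 4 rose in PBX3_Cl KO. G0S2, an inhibitor of the lipase PNPLA2, had 11 and 4 counts in Control, 647 and 595 in PAX6_Ta KO and 78 and 74 in PBX3_Cl KO, with no overlap among the 3 groups. It rose by 6.50 (SE 0.43, edgeR adjusted p = 1.65e-06) and 3.63 (SE 0.42, edgeR adjusted p = 0.000136) on the log2 scale, and differed between the knockouts by 2.87 (SE 0.33, edgeR adjusted p = 0.000112). PLIN2, which coats the droplet, rose by 0.90 (SE 0.23) and 0.98 (SE 0.23), with edgeR adjusted p-values of 0.0223 and 0.0172. PNPLA2 rose in PBX3_Cl KO by 0.81 (SE 0.21, edgeR adjusted p = 0.0303) and was at 0.17 with the 11p arm median taken out. In PAX6_Ta KO, where the 11p median was 0.62, its log2 fold change was 0.68 (SE 0.21, edgeR adjusted p = 0.056, DESeq2 adjusted p = 0.0446). Between the knockouts PNPLA2 differed by -0.13 (edgeR adjusted p = 0.788). ABHD5, which activates PNPLA2, fell in PAX6_Ta KO by 0.78 (SE 0.19, edgeR adjusted p = 0.0192), and was not called with its arm median taken out (-0.59).

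Of 17 tested genes for sterol uptake, transport and LXR targets, 2 rose in PAX6_Ta KO and 1 in PBX3_Cl KO. LIPA, the lysosomal acid lipase, had 2 and 1 counts in Control, 40 and 34 in PAX6_Ta KO and 1 and 3 in PBX3_Cl KO. The ratio of PAX6_Ta KO to Control was 27.1 with an exact 95% interval of 8.91 to 134, which covers counting error only. NR1H3, which encodes LXR alpha, rose in PAX6_Ta KO by 1.02 (SE 0.24, edgeR adjusted p = 0.0135) and was at 0.40 with the 11p arm median taken out. OSBP2, a sterol-binding protein, rose in PBX3_Cl KO by 1.06 (SE 0.23, edgeR adjusted p = 0.0117). Of 21 genes of fatty acid oxidation, ACADS rose by 0.96 (SE 0.24) and HADHB fell by 0.86 (SE 0.22) in PAX6_Ta KO, with edgeR adjusted p-values of 0.0191 and 0.0245. HADHB lies on 2p (arm median -0.49) and was not called with that median taken out (-0.37, edgeR adjusted p = 0.443). With the replicate block 3 genes of this list were higher and 4 lower in PAX6_Ta KO, and 2 were higher in PBX3_Cl KO. PPARA, a receptor for fatty acids, rose in PBX3_Cl KO by 1.68 (SE 0.29, edgeR adjusted p = 0.0025).

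Several of these calls were lost when 1 library was left out. Without Control replicate 2 the log2 fold changes no longer called in PAX6_Ta KO were 1.16 for ACACB, 0.81 for ACADS, 0.85 for PLIN2, 0.90 for NR1H3 and -0.82 for HSD17B12. The same genes lost the call without PAX6_Ta KO replicate 1, at 1.25, 0.67, 0.69, 0.80 and -0.85, and HSD17B12 also without PAX6_Ta KO replicate 2, at -0.86. ABHD5 and HADHB lost it without Control replicate 1 (-0.65 and -0.71) and without PAX6_Ta KO replicate 1 (-0.84 and -0.95) or 2 (-0.73 and -0.78). FBXW7 and PAQR3 lost it without any 1 of the 4 libraries compared, at -0.66 to -0.59 and -0.82 to -0.62. In PBX3_Cl KO, calls were lost without Control replicate 2 for OSBP2 (0.83), PLIN2 (0.93), ELOVL7 (0.94) and PNPLA2 (0.86). PLIN2 was also not called without PBX3_Cl KO replicate 1 (0.65), nor PNPLA2 without Control replicate 1 (0.76) or PBX3_Cl KO replicate 2 (0.54). G0S2 in both knockouts, LIPA, ME1 and ELOVL7 in PAX6_Ta KO, and ACACB and PPARA in PBX3_Cl KO, were called with any 1 library left out.

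**Figure D5:**
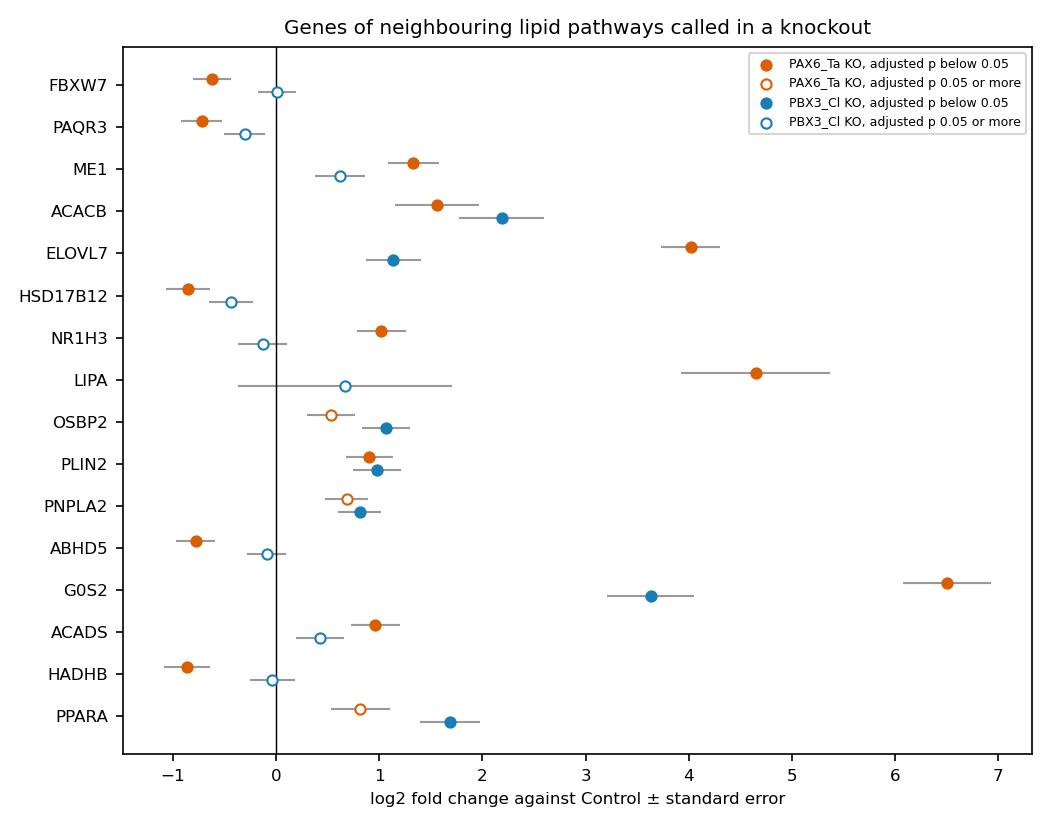
log2 fold change against Control with its standard error for the 16 named genes of neighbouring lipid pathways, PAX6_Ta KO and PBX3_Cl KO in 2 colours, filled where the edgeR adjusted p was below 0.05. G0S2 (6.50 and 3.63) and ELOVL7 (4.02 and 1.14) are filled in both knockouts, and LIPA (4.65) in PAX6_Ta KO.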

How the data were processed

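RNA of 6 K562 libraries was sequenced after a stranded library kit. After adaptor trimming (Cutadapt version 3.4) the authors used STAR with GRCh37 for alignment and for counting reads per gene, and they deposited these raw counts without normalization. The sources used here give neither the strand setting of the counting nor the STAR version, so genes that overlap may share reads. The table holds 4 further columns that match no sample label, which were not used. The authors' deposited comparison tables hold fold changes and p-values and were not used either.

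Groups and replicate numbers came from the labels. The test was edgeR's quasi-likelihood test (version 4.0.16, under R 4.3.3) on the deposited counts, after filterByExpr and TMM scaling. A single fit over the 6 libraries had group as its term, with a common BCV (coefficient of variation between replicates) of 0.215. P-values were adjusted by Benjamini-Hochberg over 20746 genes and called below 0.05. Each edgeR standard error was the absolute log2 fold change divided by the square root of the test's F statistic. The DESeq2 standard error was 0.288 for ELOVL6 in PAX6_Ta KO and 0.257 for FDPS in PBX3_Cl KO, beside 0.25 and 0.207 here. The study's tool, DESeq2 (version 1.42.0), was an alternative, beside RLE and upper-quartile factors, no filter, 1 CPM in 2 libraries, a replicate block, only the groups compared, chromosome arm medians as an offset and each library left out. No library was a copy of its partner (chi-square per degree of freedom 38.8 to 121). The difference of replicate 2 from replicate 1 correlated between groups over all tested genes (r = 0.389, 0.21 and 0.379). The labels do not say what the numbers mark. The main fit did not pair the libraries by number, and only the replicate block did. Positions came from GENCODE lifted to GRCh37 and promoters from RefSeq (GRCh38.p14). All members were named, those called in any comparison with full values, and of each other list at most the 4 called genes with the smallest p. The members and lists were chosen with earlier results of these data known, and genes given in full though not called were picked after their values were seen.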

Additional observations from a re-analysis of the deposited data

How the results depend on the processing

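The fall of ELOVL6 in PAX6_Ta KO was called in all 14 alternatives run, at log2 fold changes of -1.74 to -1.18. Other counts of the 29 genes moved, and the cause was not tested. Against Control, PAX6_Ta KO (0 higher, 1 lower) had 1 higher with DESeq2, 1 higher and 2 lower with no filter or with only the 2 groups compared, and 1 higher and 3 lower with the replicate block. PBX3_Cl KO (1 higher, 0 lower) had 2 higher and 1 lower with DESeq2 or no filter, 1 lower with upper-quartile factors or only the 2 groups, 3 higher and 1 lower with the block, and 0 higher with arm medians taken out. PAX6_Ta KO against PBX3_Cl KO (0 higher, 5 lower) had 3 higher with no filter, 3 higher with the block and 0 lower with arm medians out.

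With 1 library left out, where the lone library is assumed to vary like the other groups, higher calls ranged from 0 to 1, 0 to 2 and 0 to 4 in these comparisons and lower calls from 1 to 2, 0 to 4 and 0 to 6. The 4 lower in PBX3_Cl KO were without PBX3_Cl KO replicate 1. The median log2 fold change of the 29 genes then ranged from -0.27 to 0.053, from -0.21 to 0.26 and from -0.28 to 0.0059, so its direction was not stable. Each group had 2 libraries. CYP51A1, the member with the lowest level, had 70 to 148 counts a library.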
